A study of Mus musculus with 24 samples.

Results

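Transcription factors that pattern the gut mesenchyme were followed in stromal cells sorted from mouse Peyer's patches, lymphoid organs set in the intestinal wall. The group comprises 10 genes, chosen by name and not by their values, of 36528 gene models in the deposited tables. They are Twist1 (gene identifier 22160), Twist2 (13345), Prrx1 (18933), Tcf21 (21412), Foxf1 (15227), Foxf2 (14238), Foxl1 (14241), Nkx2-3 (18089), Hand1 (15110) and Gli1 (14632). For each mouse, 1000 fibroblastic reticular cells (FRC, the fibroblasts that form the scaffold of lymphoid tissue) or 1000 endothelial cells of high endothelial venules (HEV, the blood vessels by which lymphocytes come in) were collected by sorting and sequenced. Control mice were unperturbed, and treated mice took polyethylene glycol (PEG, an osmotic agent given to lower fluid flow) freely in drinking water at 10% (w/v) for 3 days. There were 7 FRC control, 7 FRC PEG, 4 HEV control and 6 HEV PEG libraries, each called by its group and its number from the labels. The labels give no strain, age or genotype and do not say whether FRC and HEV libraries share mice, so cell types were compared as independent samples.

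In the embryonic gut, epithelial cells secrete hedgehog ligands, and mesenchymal cells answer through the receptor Ptch1, the transducer Smo and the Gli factors. The forkhead factors Foxf1, Foxf2 and Foxl1 act in that mesenchyme downstream of hedgehog, and Foxl1 marks the subepithelial cells that feed Wnt and BMP signals to the crypts. Nkx2-3 is a homeodomain factor of gut and spleen mesenchyme that is also needed for the venule address molecule Madcam1 in Peyer's patches. Twist1, Twist2, Tcf21 and Hand1 are basic helix-loop-helix (bHLH) factors that bind E-boxes as dimers, and Prrx1 is a homeodomain factor of mesenchymal progenitors.

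The shallowest library, HEV PEG 16, had 3115003 reads assigned to genes, and the others had 12416032 to 21710946. Levels are given as CPM (a gene's reads scaled to a common total of assigned reads), except where genes are compared with each other. The sort labels were checked on defining genes. The summed level of 18 fibroblast markers ran from 38264 to 53823 CPM in FRC and from 350.2 to 1085 CPM in HEV, and that of 20 endothelial markers from 13845 to 17976 CPM in HEV and from 306.4 to 659.1 CPM in FRC. A list of 17 smooth muscle and pericyte markers summed to 4511 to 6303 CPM in FRC. FRC PEG libraries 10, 18 and 19 stood apart, with 1.72%, 1.66% and 2.25% of reads on mitochondrial genes against 0.745% to 1.30% in the other FRC libraries. Intestinal epithelial markers had a median level, as a mean of log2(CPM + 1), of 3.63 in FRC PEG and 1.57 in FRC control, with the highest values of all FRC libraries in PEG 18 (7.28) and 19 (6.78). Their median was 4.72 in HEV PEG and 3.50 in HEV control.

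Between the cell types the factors fell into 3 sets. Nkx2-3 and Foxf1 were read at sizeable levels in every library of both cell types. Tcf21, Foxf2, Foxl1, Gli1 and Twist2 were fibroblast genes, and each was lower in every HEV library than in every FRC library of the same treatment. Twist1, Prrx1 and Hand1 were scarce in both. In HEV against FRC among controls, 8 of the 10 factors had enough reads to be tested, and the same 5 fibroblast genes were lower in HEV at an edgeR adjusted p under 0.05, against 14.2% of the 15743 genes tested that were lower and 24.6% called in either direction. In PEG libraries, which the control comparison does not use, 7 were tested and these 5 genes were again lower, against 14.4% of 14991 genes lower and 26.8% called in all. The median log2 fold change of the tested factors was -8.71 among controls and -7.66 under PEG, beside -0.16 and -0.08 for all genes tested. With the genes at 0 HEV reads set to the floor of 3 reads over the group, it was -8.54 and -7.66. Twist2, Foxl1, Foxf2 and Gli1 held 0, 0, 1 and 7 reads over the HEV controls, and 0, 6, 5 and 24 over HEV PEG. They passed the filter through their FRC reads, so their direction was set once they were tested. The counts and medians are therefore descriptions, which also holds for genes of the related lists below with few reads in 1 cell type. Groups of libraries that did not overlap at all were found for 19.4% of the genes tested among controls and 17.2% under PEG. In these sorted bulk samples, fewer cells of a type and less RNA per cell cannot be told apart.

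**Figure D1:**
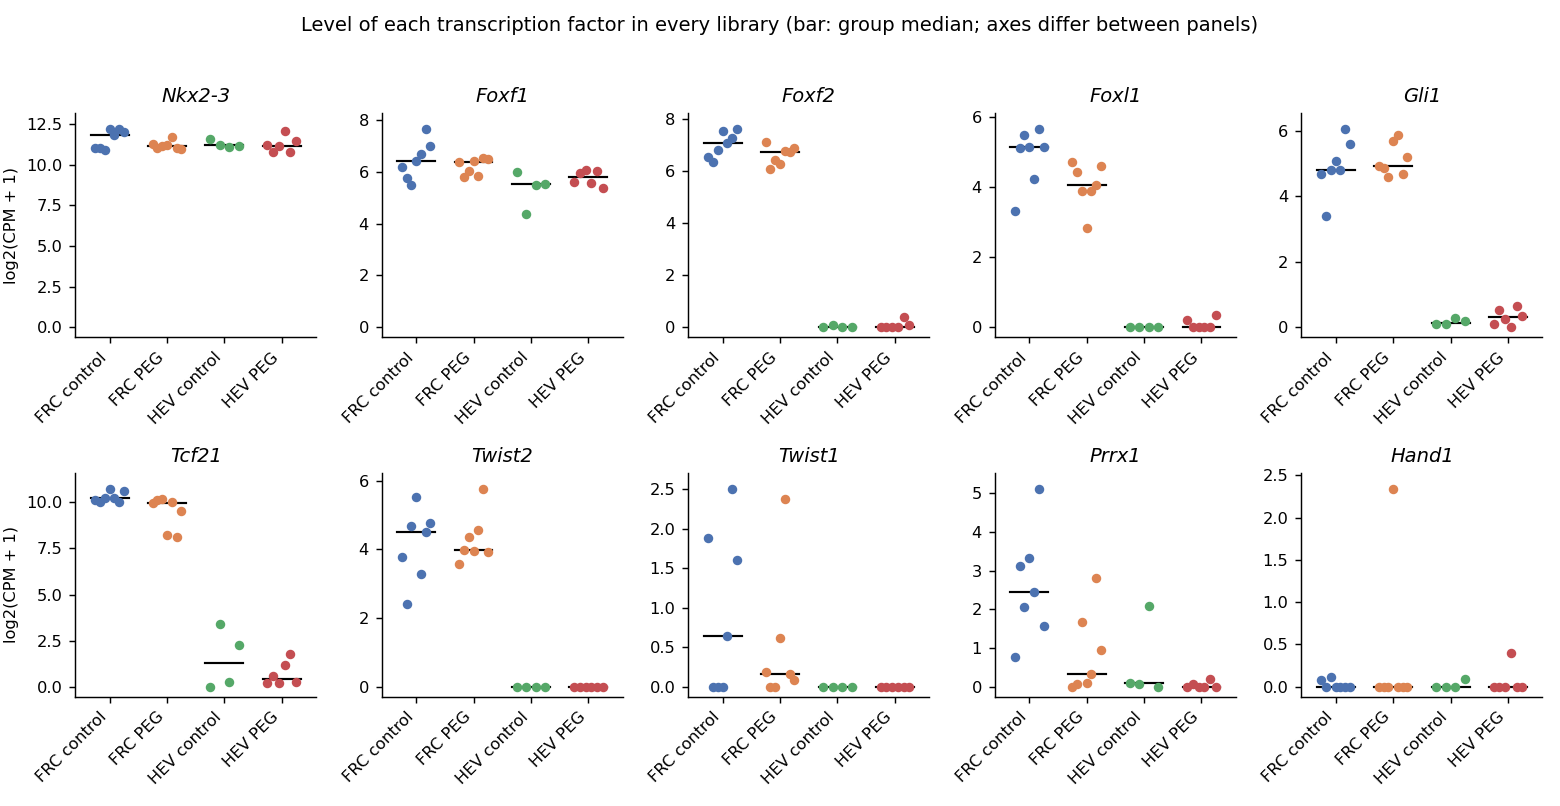
Level of the 10 factors in each of the 24 libraries, as log2(CPM + 1) on the vertical axis (axes differ between panels), with points for libraries, colours for the 4 groups and a bar at the group median. Nkx2-3 sits at similar heights in FRC and HEV and Foxf1 lower in HEV with overlapping ranges, while the HEV points of Tcf21, Foxf2, Foxl1, Gli1 and Twist2 lie at or near 0.

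Nkx2-3, the gut and spleen homeodomain factor, was the highest of the 10 in every group. Per length (the authors' RPKM scaled by library size factor, nRPKM) its median was 1077 in FRC control, 719.2 in FRC PEG, 728.4 in HEV control and 724.8 in HEV PEG. These medians placed it at rank 33, 59, 61 and 68 from the top among the 17498 to 18018 genes with a median above 0 in a group. Its promoter is shown because this is the one factor abundant in both cell types, together with those of Foxf2 and Tcf21, which were abundant in FRC and near 0 in HEV. The sequences are from RefSeq (GRCm38.p6), which gave a promoter for 6 of the 10 factors, and are cut where an annotated exon of the gene begins. They lie at chr19:43612075-43612324 (plus strand, 250 bases before the start) for Nkx2-3, at chr13:31625566-31625815 (plus strand, 250 bases before the start) for Foxf2 and at chr10:22820175-22820393 (minus strand, positions -250 to -32) for Tcf21. Capitals mark E-boxes (CANNTG) and GC boxes (GGGCGG or its complement).
Nkx2-3: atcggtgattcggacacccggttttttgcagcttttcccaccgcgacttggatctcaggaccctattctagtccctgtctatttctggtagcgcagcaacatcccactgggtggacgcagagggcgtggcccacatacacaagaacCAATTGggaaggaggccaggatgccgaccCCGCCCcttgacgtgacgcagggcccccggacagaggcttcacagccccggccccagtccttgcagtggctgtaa
Foxf2: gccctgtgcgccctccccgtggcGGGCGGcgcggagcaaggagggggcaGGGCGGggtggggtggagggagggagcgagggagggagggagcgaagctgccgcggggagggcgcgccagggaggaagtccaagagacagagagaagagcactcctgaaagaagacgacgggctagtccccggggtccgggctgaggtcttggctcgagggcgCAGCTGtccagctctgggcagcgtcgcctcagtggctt
Tcf21: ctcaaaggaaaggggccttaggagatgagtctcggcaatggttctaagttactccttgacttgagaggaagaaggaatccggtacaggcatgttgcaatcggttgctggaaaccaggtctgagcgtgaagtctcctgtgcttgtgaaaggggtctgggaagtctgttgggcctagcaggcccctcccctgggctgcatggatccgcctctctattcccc
The Nkx2-3 window holds 1 E-box at -104 and 1 GC box at -75, and the Foxf2 window 1 E-box at -38 and 2 GC boxes further upstream. The Tcf21 window holds neither. None of the 3 holds the GLI motif GACCACCCA or the letters TATAAA on either strand. Of 32851 promoter windows, 66.2% hold an E-box, 32.7% a GC box, 0.225% the GLI motif and 12.4% TATAAA. Their G and C content is 60% for Nkx2-3, 71.6% for Foxf2 and 52.4% for Tcf21, beside a median of 52.4% over all promoters.

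In FRC control, Nkx2-3 ranged from 1931 to 4703 CPM with a median of 3631, and in FRC PEG from 2047 to 3424 with a median of 2271. In HEV control libraries 8, 9, 17 and 24 it stood at 3033, 2376, 2159 and 2334 CPM, and in HEV PEG it ranged from 1759 to 4288 with a median of 2327. The groups overlapped throughout, and the highest HEV value, in HEV PEG 16, came from the shallowest library. HEV against FRC differed by -0.33 ± 0.24 (log2 fold change ± SE) among controls (edgeR adjusted p = 0.36), with all 4 HEV libraries below the FRC median. Under PEG the difference was 0.07 ± 0.21 (edgeR adjusted p = 0.86), with a 95% interval from -0.38 to 0.51. The control difference depended on the libraries used. Without HEV control 8 it was -0.80 (edgeR adjusted p = 0.0022), in libraries 10 to 24 alone -0.82 (adjusted p = 0.0093), with limma-voom -0.64 (adjusted p = 0.015), and in libraries 1 to 9 alone 0.46 (adjusted p = 0.12).

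The PEG difference of Nkx2-3 in FRC also split along the library numbers. In libraries 1 to 9 the 3 FRC controls held 2090, 2059 and 1931 CPM and the 3 FRC PEG libraries 2528, 2091 and 2271, so that the lowest PEG value and the highest control value were nearly equal and the other PEG libraries lay above all 3 controls. In libraries 10 to 24 the 4 controls held 4703, 3631, 4698 and 4132 CPM. The 4 PEG libraries held 2414, 3424, 2060 and 2047, each below the lowest control. How many other genes separate in this way in these libraries was not counted. An unadjusted edgeR p under 0.05 was reached there by 1580 of 15359 genes. Over all 14 libraries the log2 fold change was -0.36 ± 0.17 (edgeR adjusted p = 0.74), and all 7 PEG libraries lay below the control median. Within libraries 1 to 9 it was 0.19 ± 0.12 (edgeR adjusted p = 0.999), and within libraries 10 to 24 it was -0.76 ± 0.18 (adjusted p = 0.18). Without FRC PEG 10, 18 and 19 it was 0.07 ± 0.12. The difference between the 2 sets of libraries was not itself tested, and the labels name no batch. In HEV the PEG difference was -0.04 ± 0.27 (edgeR adjusted p = 0.99).

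**Figure D2:**
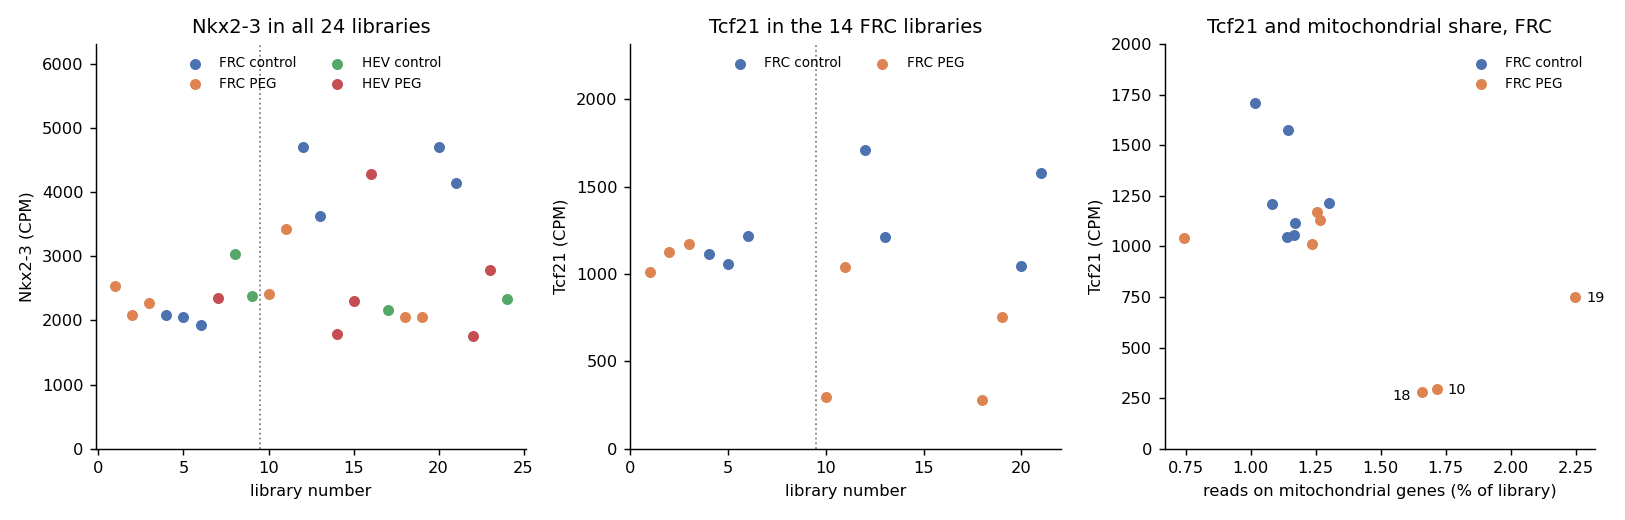
Nkx2-3 in all 24 libraries and Tcf21 in the 14 FRC libraries by library number (left and middle, CPM, dotted line between libraries 9 and 10), and Tcf21 in FRC against the share of reads on mitochondrial genes (right, with the 3 highest shares numbered). FRC controls 12, 13, 20 and 21 hold 3631 to 4703 CPM of Nkx2-3, above all other FRC libraries, and FRC PEG 10 and 18 hold 295.2 and 278.1 CPM of Tcf21.

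A list of 16 genes linked to Nkx2-3 or to venule identity had 13 members tested between the cell types, of which 10 were higher and 1 lower in HEV among controls, with the same counts under PEG, against 10.4% and 12.5% of all genes tested that were higher. The list's median log2 fold change was 6.92 among controls and 7.00 under PEG. By smallest p the list was led by Icam1, an adhesion receptor for leukocytes, which averaged 2502 ± 446 CPM (SD, n = 4) in HEV control and 379 ± 136 (n = 7) in FRC control. Madcam1, the mucosal venule ligand of gut-homing lymphocytes, was at 9368 ± 2087 CPM in HEV control and 78.5 ± 46.1 in FRC control. Its log2 fold change was 6.92 ± 0.55 (edgeR adjusted p = 9.99e-06). A relation of Madcam1 to the Nkx2-3 level was not tested. Edn1 (endothelin) and Cd34 (a sialomucin that carries selectin ligands) were also higher, by 8.61 ± 1.00 and 1.40 ± 0.17 on the log2 scale. The gene called lower was Vegfa, an endothelial growth factor, named here after its value was seen (-2.59 ± 0.80). None of the 8 tested in FRC or the 14 tested in HEV was called with PEG.

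The paired forkhead genes Foxf1 and Foxf2, close relatives in sequence, differed in where they were read. Foxf1 ranged from 43.7 to 199.1 CPM (median 84.6) in FRC control and from 54.7 to 92.4 (median 81.0) in FRC PEG. In HEV control libraries 8, 9, 17 and 24 it was at 63.1, 19.9, 44.4 and 45.1 CPM, and in HEV PEG it ranged from 40.1 to 65.4 with a median of 54.9. All HEV libraries lay below the FRC median of their treatment, and the ranges overlapped. The cell type difference was -1.14 ± 0.40 among controls (edgeR adjusted p = 0.059) and -0.47 ± 0.23 under PEG (adjusted p = 0.15). Among controls it passed the threshold with the DESeq2 Wald test (adjusted p = 0.025), with limma-voom (adjusted p = 0.0038) and without HEV control 8, where it was -1.89 (edgeR adjusted p = 0.0016). Leaving out FRC control 5 or 6 also brought it past the threshold (edgeR adjusted p = 0.049 and 0.033). So did libraries 10 to 24 alone, all 24 libraries in 1 model and no filter on low counts. Without HEV control 9 it was -0.83 (edgeR adjusted p = 0.20).

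Foxf2 ranged from 79.8 to 195.8 CPM (median 135.3) in FRC control and from 67.2 to 139.1 (median 106.8) in FRC PEG. The 4 HEV control libraries held 1 Foxf2 read in all, in HEV control 9, and the 6 HEV PEG libraries held 5 reads, 4 of them in HEV PEG 22. No HEV library came near the lowest FRC value. The pooled CPM was 8575 times higher in FRC than in HEV among controls (95% exact counting interval 1539 to 338732) and 1637 times higher under PEG (701.1 to 5042). The edgeR adjusted p was 3.90e-08 among controls (log2 fold change -12.57 ± 0.57) and 6.32e-08 under PEG (-10.57 ± 0.68). Per length, Foxf1 made up 27.7% to 55.6% of the summed Foxf1 and Foxf2 nRPKM in FRC libraries and 99.5% to 100% in HEV libraries.

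**Figure D3:**
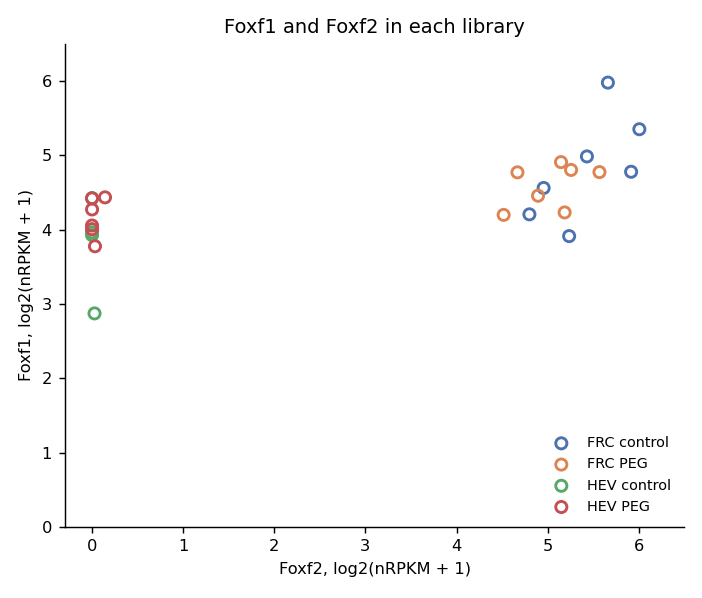
Foxf2 (horizontal) against Foxf1 (vertical) in each of the 24 libraries, both as log2(nRPKM + 1), with open circles coloured by group. The 10 HEV libraries stand in a column at or near 0 for Foxf2, with Foxf1 from 6.32 nRPKM in HEV control 9 to 20.6, against 14.1 to 62.1 in the 14 FRC libraries.

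Foxl1, the subepithelial forkhead factor, ranged from 8.99 to 49.0 CPM (median 34.1) in FRC control and from 6.10 to 25.2 (median 15.7) in FRC PEG. It had 0 reads in all 4 HEV control libraries and 6 reads over the HEV PEG libraries, 2 in HEV PEG 7 and 4 in HEV PEG 23. Against the floor of 3 reads over the HEV controls, it was at least 634-fold higher in FRC control, and under PEG 231.6 times higher (95% exact counting interval 106.2 to 631.8). The edgeR adjusted p was 9.89e-05 among controls and 5.08e-05 under PEG. All 7 FRC PEG libraries lay below the control median, though the groups overlapped, and the PEG difference was -0.92 ± 0.38 (edgeR adjusted p = 0.68).

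Foxf1 and Foxl1 lie in one gene cluster of chromosome 8, in the order Foxf1, Mthfsd, Foxc2, Foxl1, and Foxf2 lies on chromosome 13 between Foxq1 and Foxc1 (RefSeq, GRCm38.p6). Neighbouring genes did not share a single pattern. Foxq1, a forkhead factor beside Foxf2, was lower in HEV among controls (2 reads over 4 libraries against 777 over 7, edgeR adjusted p = 0.0071). Fendrr, a long noncoding RNA read divergently from Foxf1, was also lower (log2 fold change -1.95 ± 0.64, edgeR adjusted p = 0.045), at 11.7 ± 10.8 CPM (SD, n = 4) in HEV control and 41.5 ± 13.6 (n = 7) in FRC control. Mthfsd, an RNA-binding protein gene inside the cluster, differed by -0.17 ± 0.53. Foxc1 and Foxc2 were not tested among controls for want of reads. In FRC, Fendrr was at 65.6 ± 12.9 CPM with PEG and 41.5 ± 13.6 without (log2 fold change 0.70 ± 0.26, edgeR adjusted p = 0.63). The counts carry no strand, so reads of Fendrr and of any overlapping transcript cannot be told apart, which also holds for annotated antisense transcripts at the starts of Twist2 and Foxf2.

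Genes of the Foxl1-positive subepithelial cell, a list of 20 that were all tested, were mostly fibroblast genes here. Among controls 17 were lower and 2 higher in HEV, and under PEG 17 lower and 3 higher, with median log2 fold changes of -8.93 and -7.00. Over all genes tested, 14.2% were lower and 10.4% higher among controls, and 14.4% and 12.5% under PEG, so the share of higher genes in the list was near that of all genes. Pdgfra, the growth factor receptor that marks these fibroblasts, had 10 reads over the 4 HEV controls and 547.0 ± 75.3 CPM (SD, n = 7) in FRC control. Bmp4, a secreted BMP ligand, was at 51.4 ± 24.2 CPM in HEV control and 1155 ± 567 in FRC control. F3 (tissue factor) and Nrg1 (neuregulin) had 1 and 4 reads over the HEV controls. Cd81 and Procr were the 2 higher in HEV among controls, named after their values were seen. None of the 20 was called with PEG in FRC, where the list's median log2 fold change was -0.03.

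Gli1, the hedgehog effector that is itself a target of the pathway, ranged from 9.51 to 65.6 CPM (median 27.1) in FRC control and from 23.2 to 57.7 (median 29.5) in FRC PEG. The 4 HEV controls held 1, 1, 3 and 2 reads, and the HEV PEG libraries 0 to 8. The pooled level was 297.9 times higher in FRC among controls (95% exact counting interval 144.5 to 741.5) and 118.0 times higher under PEG (79.2 to 184.3), with edgeR adjusted p-values of 4.88e-06 and 8.81e-07. The FRC groups overlapped fully, with a PEG difference of 0.19 ± 0.32 (edgeR adjusted p = 0.97).

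Of 20 other hedgehog pathway genes, 18 were tested among controls, and 8 were lower and 1 higher in HEV. Under PEG 17 were tested, of which 11 were lower and 2 higher. The list's median log2 fold change was -2.54 and -3.77. Over all genes 14.2% were lower and 10.4% higher among controls, and 14.4% and 12.5% under PEG, so the higher counts in the list were near the background share. Hhip, a hedgehog-binding inhibitor induced by the pathway, was at 168.1 ± 34.8 CPM (SD, n = 7) in FRC control with 8 reads over the HEV controls. Gli2, the activating Gli factor, was at 43.0 ± 20.9 CPM in FRC control with 2 reads over the HEV controls. The co-receptor Gas1 and the transducer Smo were at 80.8 ± 27.4 and 35.3 ± 8.65 CPM in FRC control and at 0.671 ± 1.13 and 1.59 ± 2.38 CPM in HEV control. All 4 were lower in HEV in both treatments. The gene called higher among controls was the ligand Dhh, named after its value was seen. It was at 30.2 to 77.4 CPM in HEV control and 26.3 to 129 CPM in HEV PEG, with 0 reads in 5 of 7 FRC control and 4 of 7 FRC PEG libraries. Its log2 fold change was 8.24 ± 1.77 among controls (edgeR adjusted p = 0.0049). The ligands of gut epithelium, Shh and Ihh, were not tested for want of reads. None of the 15 hedgehog genes tested in FRC or the 13 tested in HEV was called with PEG.

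Tcf21, a bHLH factor of visceral mesenchyme and fibroblasts, was next to Nkx2-3 in FRC level. Its median of 718.3 nRPKM in FRC control and 638.5 in FRC PEG stood at rank 65 and 71 from the top of all genes. FRC control libraries ranged from 1044 to 1709 CPM with a median of 1209, and FRC PEG libraries from 278.1 to 1171 with a median of 1011. HEV controls 8, 9, 17 and 24 held 0, 163, 3 and 56 reads, and the HEV PEG libraries held 2 to 30. No HEV library exceeded 9.50 CPM. The pooled level was 359.6 times higher in FRC among controls (95% exact counting interval 315.2 to 412.1) and 1296 times higher under PEG (985.5 to 1741), with edgeR adjusted p-values of 0.00043 and 2.79e-06. HEV control 9, which held most of the control reads, also held 881 reads of the collagen Col1a1, against 5 to 49 in the other HEV controls. It held 1 read of Foxf2. Its Tcf21 reads per 100 Col1a1 reads were 18.5, beside an FRC range of 21.0 to 135.9. HEV controls 8, 17 and 24 were at 0, 60 and 114.3. The HEV PEG libraries ran from 25 to 3000, on 1 to 11 Col1a1 reads. The source of the Tcf21 reads in HEV was not tested. Without HEV control 9 the log2 fold change went from -9.09 to -10.28. Among HEV libraries Tcf21 differed with PEG by -1.64 ± 1.55 (edgeR adjusted p = 0.88), and by 0.21 without HEV control 9.

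The PEG difference of Tcf21 in FRC was -0.70 ± 0.29 (edgeR adjusted p = 0.68) and did not pass the threshold. It was called without a filter on low counts, a setting in which edgeR called 127 genes higher and 50 lower of 28700. All 7 PEG libraries were below the control median, and 5 of them were below the lowest control value of 1044 CPM. The low values were those of PEG 18 (278.1 CPM), 10 (295.2) and 19 (751.2), the same 3 libraries that had the highest mitochondrial shares, while the other 4 held 1011 to 1171 CPM. Without these 3 the difference was -0.15 ± 0.16. It was -0.02 ± 0.12 in libraries 1 to 9 alone and -1.21 ± 0.39 in libraries 10 to 24 alone (edgeR adjusted p = 0.31). With the epithelial marker level as a covariate it was -0.61 ± 0.34. The part of mitochondrial share in the Tcf21 level was not tested.

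Twist2, a bHLH factor of dermal and other mesenchyme, ranged from 4.34 to 45.3 CPM (median 21.9) in FRC control and from 11.0 to 53.3 (median 14.9) in FRC PEG. It had 0 reads in all 10 HEV libraries, so FRC was at least 429-fold higher among controls and at least 564-fold higher under PEG at the floor of 3 reads over the HEV group. The edgeR adjusted p was 0.00047 and 4.52e-05. The FRC groups overlapped, and the PEG difference was 0.07 ± 0.47 (edgeR adjusted p = 0.998). Its relative Twist1 also had 0 reads in all HEV libraries. In FRC, Twist1 was at 0 in 3 of 7 control and 2 of 7 PEG libraries and peaked at 4.68 CPM in control 20 and 4.18 in PEG 11. Twist2 made up most of the summed Twist1 and Twist2 nRPKM in every FRC library, with a minimum of 85.3% in FRC control and 87.0% in FRC PEG.

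Hand1, a bHLH factor of heart and gut mesenchyme, was read 2 times over the FRC controls, 1 time over each HEV group and 68 times in FRC PEG, all of them in library 10 (4.07 CPM). It was not tested. Among 16 bHLH partners, relatives and Id inhibitors, 12 were tested between the cell types, with 5 lower and 1 higher in HEV among controls, and 4 lower and 4 higher under PEG. The median log2 fold change was -0.55 and -0.05. Over all genes 14.2% were lower and 10.4% higher among controls, and 14.4% and 12.5% under PEG, and 1 of 12 higher is no more than that share. Msc (musculin), a close relative of Tcf21, was at 454.7 ± 93.6 CPM (SD, n = 7) in FRC control and 1.60 ± 1.05 (n = 4) in HEV control. Id3 and Id4, which block bHLH dimers from binding DNA, were lower in HEV control, with log2 fold changes of -1.33 ± 0.15 and -3.65 ± 0.50. Bhlhe40, a bHLH repressor, was higher by 3.01 ± 0.29. The dimer partners Tcf3, Tcf4 and Tcf12, named after their values were seen, did not pass the test among controls, at 0.29 ± 0.43, 0.20 ± 0.20 and 0.06 ± 0.48. Under PEG Tcf3 was called higher in HEV (1.20 ± 0.37, edgeR adjusted p = 0.029), and Tcf4 and Tcf12 were at 0.47 ± 0.18 and 0.10 ± 0.41.

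Prrx1 was low and uneven. FRC control libraries ranged from 0.705 to 33.9 CPM (median 4.49), with 506 of 944 reads in control 20, and FRC PEG libraries from 0 to 6.02 (median 0.250), with 102 of 159 reads in PEG 18. The HEV controls held 50 reads, of which 48 were in HEV control 17, and the HEV PEG libraries 3. Between the cell types it differed by -4.72 ± 1.71 among controls (edgeR adjusted p = 0.066), and without HEV control 17 by -7.05 (adjusted p = 0.020). It also passed with the DESeq2 Wald test (adjusted p = 0.00077), without FRC control 21 (edgeR adjusted p = 0.045) and without a filter on low counts. The PEG difference in FRC was -3.07 ± 1.20 (edgeR adjusted p = 0.66), with 6 of 7 PEG libraries below the control median.

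Of 41 other transcription factors of mesenchyme, 27 were tested in each cell type comparison, with 17 lower and 5 higher in HEV among controls, and 16 lower and 8 higher under PEG. The median log2 fold change was -3.38 and -2.05, also with the gene that had 0 reads in a group set to the floor. Over all genes 14.2% were lower and 10.4% higher among controls, and 14.4% and 12.5% under PEG. Sox5 and Sox6, related factors of skeletal and gut mesenchyme, were at 44.1 ± 18.7 and 56.6 ± 13.9 CPM (SD, n = 7) in FRC control with 4 and 2 reads over the HEV controls. Osr1, a zinc finger factor of fibroblast progenitors, was at 29.3 ± 5.03 CPM with 1 read over the HEV controls. Meox1, a homeodomain factor first known from somites, went the other way, at 220.0 ± 15.3 CPM (n = 4) in HEV control and 12.0 ± 3.45 in FRC control. None of these factors was called with PEG.

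**Figure D4:**
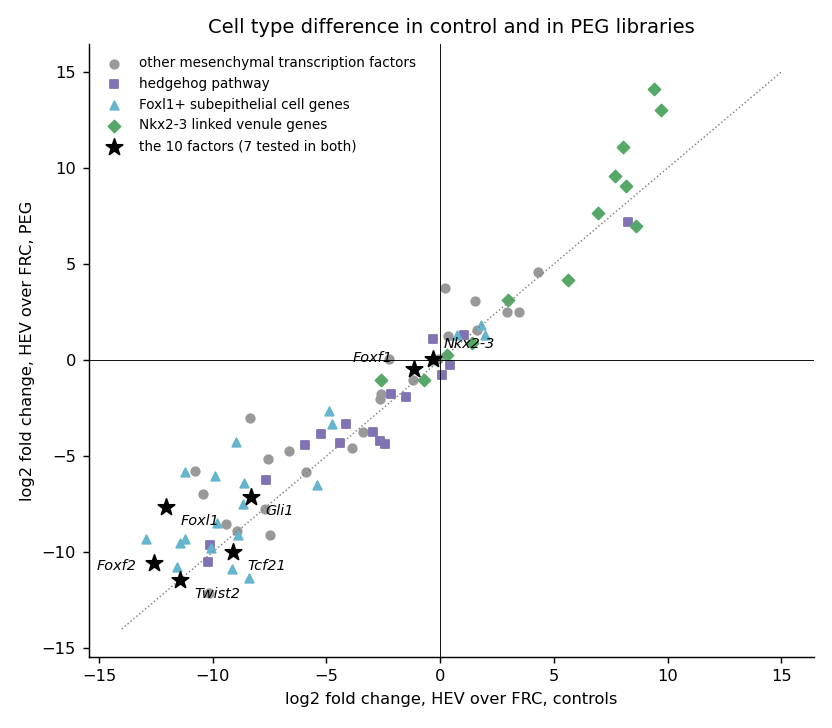
Log2 fold change of HEV over FRC among controls (horizontal) and under PEG (vertical), 1 point per gene tested in both, with stars for 7 of the 10 factors, other symbols for 4 of the related lists and a dotted line of equality. Nkx2-3 and Foxf1 lie nearest the origin of these factors, Twist2, Tcf21, Foxf2, Foxl1 and Gli1 at -7.14 or below on both axes, and most venule genes at the upper right; fitted values of genes with 0 HEV reads depend on the prior count.

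In the main fit PEG changed none of the factors beyond the threshold. In FRC 8 were tested and 0 called, beside 0.0% of 14595 genes. In HEV 3 were tested and 0 called, beside 0.0% of 14308 genes. An unadjusted edgeR p under 0.05 was reached by 989 genes in FRC and 886 in HEV. DESeq2 called 28 genes higher and 27 lower with PEG in FRC and 77 and 39 in HEV. Limma-voom called 21 and 4 in FRC and 0 in HEV. None of these was one of the factors. Without a filter on low counts, edgeR called Tcf21 in FRC as 1 of 50 genes lower, with 127 higher, of 28700 tested. In FRC 6 of the 8 tested had negative values, with a median of -0.36 beside 0.01 for all genes. Negative values were also held by 15 of 18 fibroblast markers (median -0.09) and 19 of 26 other transcription factors of mesenchyme (-0.20). The same was true of 12 of 16 smooth muscle and pericyte markers (-0.26), and of 10 of 20 Foxl1-positive cell genes (-0.03). Without FRC PEG 10, 18 and 19, whose mitochondrial shares were the highest, Nkx2-3 went from -0.36 to 0.07, Tcf21 from -0.70 to -0.15, Foxf2 from -0.36 to -0.10 and Foxl1 from -0.92 to -0.63. In libraries 1 to 9 alone, Foxf1, Foxf2 and Nkx2-3 had positive values. The intestinal epithelial markers had positive PEG values in FRC in 20 of 20 genes tested (median 1.88, 0 called). In HEV they did so in 20 of 21 (median 2.04, 0 called), beside a median of 0.01 for all genes in each cell type. The part of epithelial reads in the factors' values was not tested. The 95% intervals in FRC ran from -0.79 to 0.08 for Foxf2 (-0.36 ± 0.20), from -0.67 to 0.23 for Foxf1 (-0.22 ± 0.21) and from -0.94 to 1.07 for Twist2, so changes of these sizes are not excluded. In HEV the interval was -0.62 to 0.55 for Nkx2-3 and -0.42 to 1.27 for Foxf1 (0.42 ± 0.39, edgeR adjusted p = 0.87).

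**Figure D5:**
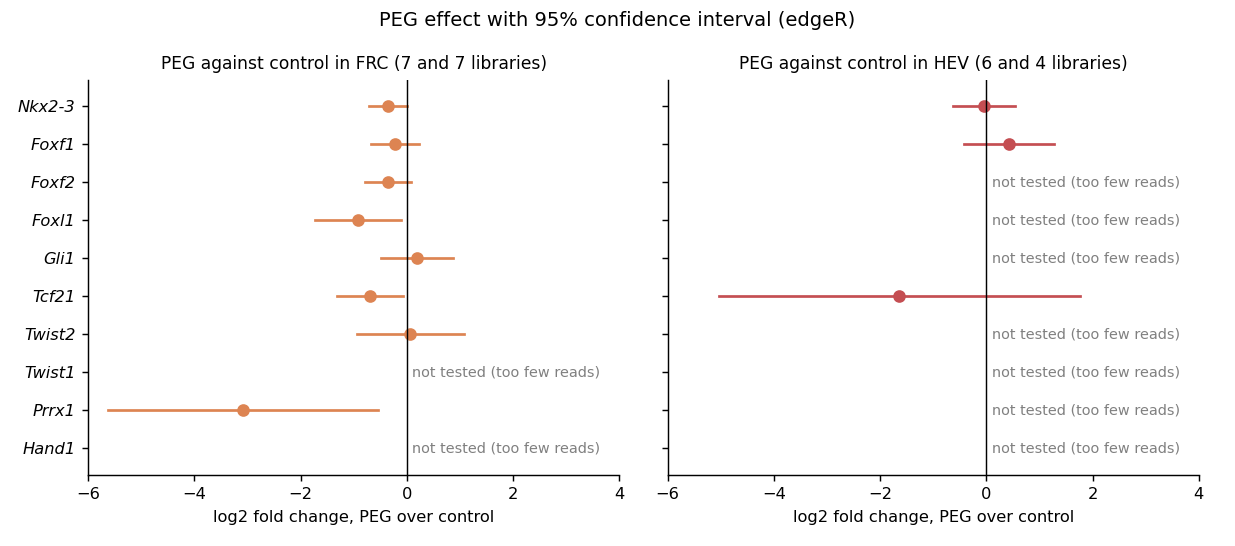
Log2 fold change of PEG over control (points) with 95% confidence intervals (lines) from edgeR for the 10 factors in FRC (left) and HEV (right). Intervals of Tcf21, Foxl1 and Prrx1 in FRC lie below 0 before adjustment for 14595 genes, and 7 factors had too few reads in HEV to be tested.

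Whether PEG acted differently in HEV than in FRC was fitted as an interaction over all 24 libraries. Of 9 factors that passed the filter 0 were called, beside 0.011% of 18203 genes. On simulated counts this fit recovered 0% of 56 genes changed 2-fold and 5.97% of 67 changed 4-fold. A lack of call therefore says little about differences of these sizes. Twist1 and Twist2 had 0 reads in every HEV library, so no difference could be estimated for them. Prrx1, Foxf2, Foxl1 and Gli1 passed the filter through their FRC reads, with 3, 5, 6 and 24 reads over the HEV PEG libraries. Their lack of a call is therefore no finding about PEG in HEV. For the pair with reads above the floor in every HEV library, the difference was 0.63 ± 0.43 for Foxf1 (edgeR adjusted p = 0.65) and 0.31 ± 0.32 for Nkx2-3 (adjusted p = 0.80). No value is given for the others, whose HEV libraries hold few or no reads.

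Within FRC control, the order of the per-length medians was Nkx2-3, Tcf21, Foxf2 (42.1 nRPKM), Foxf1 (26.5), Twist2 (12.6), Foxl1 (8.81), Gli1 (5.79), Prrx1 (0.440), Twist1 (0.250) and Hand1 (0). The sole gap between neighbours whose library ranges did not overlap was that between Tcf21 and Foxf2, which also held in FRC PEG. In HEV control the order began with Nkx2-3 (728.4 nRPKM), Foxf1 (14.4) and Tcf21 (1.27), with no overlap between these neighbours, and all others had medians of 0.0213 or less.

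Across the 14 FRC libraries, 7 factors averaged at least 5 CPM, which gave 21 pairs. Libraries share treatment, pool and depth, so the values are descriptions. The highest Pearson correlation of log2(CPM + 1) was that of Foxf2 with Nkx2-3 (r = 0.75, Spearman rho = 0.58, r = 0.70 without the 2 farthest libraries), followed by Foxf1 with Nkx2-3 (0.62, 0.52 and 0.39) and Foxf1 with Foxf2 (0.57, 0.63 and 0.70). Of 11644 genes compared, Mylk was most like Nkx2-3 (r = 0.93, rho = 0.89, 0.90 without the 2 farthest), and Nptn most like Tcf21 (0.94, 0.67 and 0.68, so that much of it rested on the 2 lowest libraries). The closest genes to the others, with r without the 2 farthest libraries as the second value, were Snrpert for Foxf1 (0.91 and 0.94), Bmyc for Foxf2 (0.91 and 0.87), Tspan18 for Gli1 (0.88 and 0.69), Slc27a4 for Twist2 (0.82 and 0.62) and Slc35d1 for Foxl1 (0.79 and 0.64). The last 3 thus rested in part on 2 libraries. Over the 10 HEV libraries, Nsmce2 was most like Foxf1 (r = 0.94, 0.77 without the 2 farthest) and Mta2 most like Nkx2-3 (r = 0.89, 0.69 without the 2 farthest).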

How the data were processed

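RNA of 24 sorted libraries (7 FRC control, 7 FRC PEG, 4 HEV control, 6 HEV PEG) was sequenced after template switching and a transposase library kit, per the labels' protocols. Per the same protocols, reads of low quality, from ribosomal RNA or from adapters were discarded, and reads with 1 mapping place were used. Reads were aligned with GSNAP to mm9, per the submitters' processing notes, whereas the protocol text names a human build, and the version of the annotation is not given in the sources used here. Each deposited file holds the authors' read count per gene model and, per the file headers, an RPKM scaled by a size factor (nRPKM). The deposited RPKM was checked to equal count over size factor times a gene constant, to a relative tolerance of 1e-06, in 10335 of 10335 genes with a read in every library. That constant correlated at 0.888 (log scale) with annotated exon length over 23604 genes. Identifiers were joined to RefSeq symbols (GRCm38.p6), which named 85.0% of models.

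Counts were filtered with filterByExpr (minimum 10), TMM scaling was applied, and genes were tested on the whole table by quasi-likelihood F tests, robust and two-sided, in edgeR (4.0.16) with limma (3.58.1) under R (4.3.3), with the index pool as covariate and Benjamini-Hochberg adjustment over all genes tested. A gene was called at an adjusted p under 0.05. The pool (libraries 1 to 8, 9 to 16 and 17 to 24) is inferred from recurring index pairs. Standard errors (SE) were derived from the fitted log2 fold change and its F statistic. Alternatives were DESeq2 (1.42.0) or submitters' size factors, other filters, the DESeq2 test, limma-voom, other covariates, libraries 1 to 9 or 10 to 24 alone, all libraries in 1 model, and each library left out in turn. On simulated counts, recovery was counted among changed genes with a mean of at least 5 CPM. For PEG against control in FRC (14212 genes), 17.3% of 81 genes changed 2-fold and 63.6% of 88 changed 4-fold were recovered. In HEV (13898 genes) it was 1.30% and 23.4% of 77 each. For HEV against FRC, 1.18% of 85 genes changed 2-fold and 25.3% of 75 changed 4-fold were recovered among controls. Under PEG it was 2.47% of 81 and 40.8% of 76. For the difference of the PEG effect it was 0% of 56 and 5.97% of 67. Recovery of scarcer genes was not counted.

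All 10 factors are named in every comparison. Of each related list, up to 4 genes of smallest p in HEV against FRC among controls are named. Members, lists and tests were chosen with earlier results of these data known. Labels do not number the mice, so p-values measure the spread between libraries. Counts are PCR copies without molecular identifiers, so the 95% exact intervals and the floor of 3 reads cover counting error only. Where a related list or the factors held genes at 0 reads in a group, the median is given also with these set to that floor.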

Additional observations from a re-analysis of the deposited data

Results flagged for a closer look

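Of 30 groups of libraries tested, 8 held a library far from the others of its group (Dixon's test at 95%). In FRC PEG these were Twist1 in library 11 (4.18 CPM, next value 0.538), Twist2 in library 18 (53.3, next 22.5), Prrx1 in library 18 (6.02, next 2.18), Nkx2-3 in library 11 (3424, next 2528) and Hand1 in library 10 (4.07, next 0). In FRC control it was Prrx1 in library 20 (33.9, next 9.01). In HEV control it was Prrx1 in library 17 (3.27, next 0.0633), and in HEV PEG Foxf2 in library 22 (0.316, next 0.0692), which is 4 reads. Each was the highest of its group. Dixon's test flags about 1 group in 20 by chance only where values are normally distributed. It was run here on CPM without logs, and several flagged groups lay mostly at or near 0. Hand1 in FRC PEG was at 0 in 6 of 7 libraries, where any sizeable value is flagged. The number of flags is therefore not set against that rate. The causes were not tested.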

How the results depend on the processing

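The count of factors called was within 1.5 times the main count in all but 3 of the alternatives run. Without a filter on low counts, 1 factor was called with PEG in FRC (Tcf21, -0.71 ± 0.14, edgeR adjusted p = 0.00016, against 0.677 with the filter). That fit tested 28700 genes in place of 14595, and it called 127 genes higher and 50 lower, where the filtered fit called 0. Among controls 8 factors were called between the cell types without the filter, beside 1899 genes higher and 2427 lower of 28145 tested. In libraries 1 to 9 alone, 3 were called under PEG, with Twist2 and Foxl1 lost at adjusted p-values of 0.053 and 0.063, where the HEV PEG arm is library 7 alone, a single sample assumed to vary like the other libraries. With 1 library left out, 5 to 7 were called among controls, 5 in every case under PEG, and 0 in every case in the comparisons of PEG with control and for the difference of the PEG effect. Of the values of single factors under alternatives other than leaving out 1 library, 371 kept their direction and side of the threshold, 10 came to pass it, 2 no longer passed it and 17 changed sign, none of the last called. In FRC the PEG difference became -0.27 for Twist2 and -0.045 for Gli1 with the i5 index as covariate, -0.14 for Twist2 with the epithelial level, -0.018 for Gli1 in libraries 10 to 24, 0.27, 0.063 and 0.19 for Foxf1, Foxf2 and Nkx2-3 in libraries 1 to 9, and 0.066 for Nkx2-3 without FRC PEG 10, 18 and 19. In HEV it became -0.017 for Foxf1 without HEV control 9 and HEV PEG 16, and for Nkx2-3 0.039 with libraries 1 to 9 against 10 to 24 as covariate, 0.13 in libraries 10 to 24 and 0.075 with the fibroblastic level. HEV against FRC for Nkx2-3 became 0.46 among controls in libraries 1 to 9, and under PEG -0.066 without HEV PEG 16 and -0.10 without FRC PEG 10, 18 and 19. The difference of the PEG effect became -0.046 for Foxf1 and -0.38 for Nkx2-3 in libraries 1 to 9, again with HEV PEG 7 as the only library of its arm. With each library left out in turn, Twist2 with PEG in FRC ranged from -0.26 to 0.45 (main value 0.07). In HEV the range with PEG was -2.32 to 0.21 for Tcf21 (main value -1.64) and -0.027 to 0.70 for Foxf1 (0.42). For Nkx2-3 it was -0.19 to 0.076 (-0.04). Between the cell types under PEG, Nkx2-3 ranged from -0.066 to 0.22 (main value 0.07). The causes were not tested. The settings without HEV control 9, HEV PEG 16 and FRC control 20, or without FRC PEG 10, 18 and 19, were chosen after seeing the data. The latter leaves no FRC PEG library in the pool of libraries 17 to 24. HEV against FRC under PEG with the i5 index could not be fitted, because index and cell type coincide there. No paired analysis was possible because the groups share no replicate numbers. At this depth, factors with under 3 reads in a group were near the counting floor.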
